A study of Homo sapiens with 3 samples.

Results

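The 10 genes described here are targets of the transcription factor ATF4 that act in amino acid synthesis or in the response to its failure: ASNS, PHGDH, PSAT1, PSPH, SHMT2, MTHFD2, SESN2, TRIB3, CHAC1 and CEBPG. They were taken by gene name, and all 10 were among the 8812 transcripts listed in every table. Ribosome-protected fragments (RPFs), the pieces of mRNA that a ribosome shields from nuclease, had been sequenced from HEK293T, a cell line of human embryonic kidney origin that expresses the large T antigen of SV40. The control group was cells without drug (0 µg/mL), with 2 libraries named Untreated A and Untreated B. The other group, with 1 library named G418 A, was given 500 µg/mL of G418, an aminoglycoside that binds the ribosome and makes decoding less accurate. The labels give 24 hours for all 3 libraries. The study describes the libraries of a condition as biological replicates, and the labels do not say whether A and B came from separate cultures.

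ATF4 is a transcription factor whose mRNA is translated better when the initiation factor eIF2 is phosphorylated, as happens when amino acids run short or unfolded protein accumulates in the endoplasmic reticulum (ER). It binds composite C/EBP-ATF sites and switches on enzymes, transporters and tRNA synthetases that restore the supply of amino acids. Among its targets, PHGDH, PSAT1 and PSPH carry out the steps from a glycolytic intermediate to serine, SHMT2 and MTHFD2 pass the serine carbon into the mitochondrial folate cycle, and ASNS makes asparagine. CEBPG encodes a dimer partner of ATF4, SESN2 a sensor that restrains mTORC1, TRIB3 a pseudokinase that feeds back on ATF4, and CHAC1 an enzyme that degrades glutathione.

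The depth behind each library was 5857230 and 9477972 reads in the untreated libraries A and B, against 7216039 reads in G418 A. The study discards transcripts below a minimum number of reads, and the same minimum was asked here of the mean number of reads in the coding sequence (CDS) of the transcripts used as background, which 5684 transcripts met. Of the 10 genes, 6 met it as well, from PSAT1 with a mean of 1624 CDS reads down to CEBPG with 422, whereas PSPH, SESN2, TRIB3 and CHAC1 fell below it with 112, 101, 61.3 and 23.7. Of 6 markers of HEK293T cells, 5 were listed in all 3 libraries, and PAX2 was listed in Untreated B alone. Of 7 markers of other cell types, ALB, HBB, PTPRC, CD3E and MYH7 were listed in none, while COL1A1 and ACTA2 were listed in all 3 at low density (8.0 to 10.7 and 12.6 to 22.9 RPKM).

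Because G418 acts on the ribosome at stop codons, the sequence around the normal termination codon (NTC) is shown for 4 of the genes, chosen as pairs that share a stop signal. Each line has 12 nt of the CDS, then the NTC and the next nucleotide in capitals, then 14 nt of the 3′UTR, read from the hg38 genome with GENCODE version 44. The NTC lay in the last exon of every one of the 10 transcripts, and the 4-nt stop signal in the tables matched the genome for all 10. The signals TAAC and TGAA are written UAAC and UGAA below, as in the mRNA.
MTHFD2, chr2:74214240-74214242, plus strand: gtagccactaatTAACtactgtgtcttctg
PSPH, chr7:56011762-56011764, minus strand: gaactggaagaaTAACatccattgtcgtac
SHMT2, chr12:57234359-57234361, plus strand: tttgatgagcatTGAAggcacctgggaaat
PSAT1, chr9:78329084-78329086, plus strand: atgcatcagctaTGAAcacatcctaaccag

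The first question was whether the CDS of these genes took a larger or smaller share of the library's reads with G418. The genes had no common direction. CEBPG was denser in G418 than in either untreated library, and SHMT2 and PHGDH were less dense. MTHFD2 was denser on the deposited scale but, with TMM scaling, not beyond counting error over Untreated A. None of the 10 passed the edgeR test, which called 1.5% of all transcripts tested, so that a count of 0 among 10 genes says little. Density is given in RPKM, reads per kilobase of CDS scaled to the depth of the library. RPF density combines the amount of an mRNA with how often it is translated and how fast ribosomes move along it. The study reports that G418 changed ribosome occupancy at start codons and at sense codons. In bulk cells none of these can be told apart from a change in the share of cells that express the gene. RPKM is relative to library depth and does not give absolute ribosome numbers. The study also sequenced RNA and took the ratio of RPF to RNA density for each transcript, but RNA values were not used here. ASNS, MTHFD2, PSAT1 and PSPH have named pseudogenes (4, 7, 4 and 1), and reads that match a copy could be credited to the wrong locus.

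Untreated cells set the genes in an order. Mean untreated CDS density ± SD (n = 2) was 206 ± 11.02 RPKM for PSAT1, 156 ± 13.7 for SHMT2, 132 ± 4.36 for MTHFD2, 120 ± 8.06 for PHGDH, 117 ± 11.8 for CEBPG and 85.0 ± 7.34 for ASNS. PSPH followed at 21.8 ± 4.71 RPKM, then SESN2 at 8.89 ± 2.46, TRIB3 at 6.49 ± 1.54 and CHAC1 at 4.46 ± 4.02. Of neighbours in this order, MTHFD2 and PHGDH, PHGDH and CEBPG, SESN2 and TRIB3, and TRIB3 and CHAC1 differed by less than the sum of their SDs, and the others by more. PSPH, the last enzyme of serine synthesis, was thus measured at a far lower density than the enzymes before it.

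**Figure D1:**
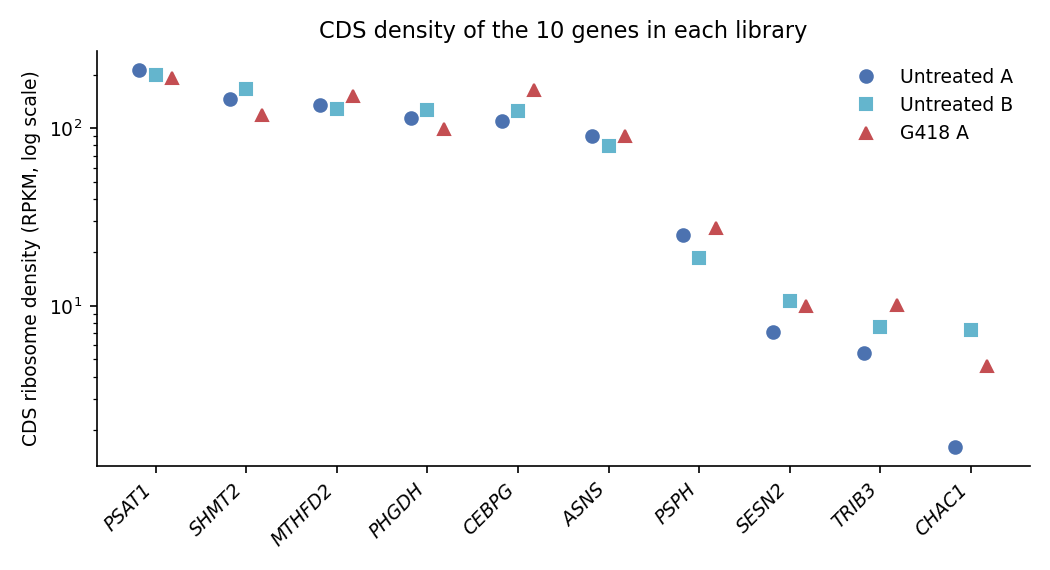
CDS ribosome density (RPKM, log axis) of the 10 genes in Untreated A (circles), Untreated B (squares) and G418 A (triangles), 1 point per library. The 6 genes on the left lie between 79.8 and 213 RPKM in every library, and the 4 on the right between 1.61 and 27.5 RPKM, with CHAC1 showing the widest gap between the untreated libraries.

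Within serine synthesis, PHGDH, the enzyme that commits carbon to the pathway, had CDS densities of 115 and 126 RPKM in Untreated A and B, and 98.4 RPKM with G418. The G418 value was the lowest of the 3, with a log2 change of -0.22 over Untreated A (95% interval -0.34 to -0.10) and -0.36 over Untreated B (-0.47 to -0.25). These intervals are exact ones for the reads of the 2 libraries compared and cover counting error only. The untreated libraries differed by 0.14 (B over A), less than either change.

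PSAT1, the aminotransferase that acts next, had 213 and 198 RPKM in the untreated libraries A and B, against 192 RPKM in G418 A. Its log2 changes with G418 were -0.15 and -0.04, and the difference between the untreated libraries, -0.11, was of the same size. PSPH, the phosphatase that releases serine, had 25.1, 18.5 and 27.5 RPKM in the same order of libraries. G418 lay above both, by 0.13 over Untreated A and 0.57 over Untreated B, but the untreated pair differed by -0.44, more than the change over Untreated A.

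SHMT2, the mitochondrial enzyme that splits serine into glycine and a one-carbon unit, had the lowest change over the untreated mean of the 10 genes. Its CDS density was 146 and 166 RPKM in Untreated A and B, and 118 RPKM with G418, a log2 change of -0.31 (-0.42 to -0.20) over A and -0.49 (-0.59 to -0.39) over B. The untreated libraries differed by 0.18. MTHFD2, which oxidises the one-carbon unit that SHMT2 produces, had the opposite sign, with 135, 129 and 151 RPKM. The log2 change of MTHFD2 was 0.17 (0.03 to 0.30) over A and 0.23 (0.12 to 0.35) over B, beside an untreated difference of -0.07.

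ASNS, a gene often used as a readout of ATF4 activity, had 90.2 and 79.8 RPKM in the untreated libraries A and B, against 90.4 RPKM in G418 A. The G418 library matched Untreated A (log2 change 0.0033, -0.13 to 0.13) and exceeded Untreated B by 0.18 (0.06 to 0.30), which is the size of the gap between the untreated libraries (-0.18).

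Among the regulators, CEBPG was the one with enough reads for the background set, with 109 and 126 RPKM in Untreated A and B, and 164 RPKM with G418. Its log2 change was 0.59 (0.37 to 0.81) over A and 0.38 (0.20 to 0.57) over B, and the untreated libraries differed by 0.21. TRIB3 had 33 and 75 CDS reads in the untreated libraries A and B, against 76 CDS reads in G418 A, which gave 5.40, 7.58 and 10.1 RPKM. TRIB3 lay above both untreated libraries, by 0.90 and 0.41, but the gap of 0.49 between them was larger than the change over Untreated B.

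SESN2 and CHAC1 separated the untreated libraries more than they separated G418 from them. SESN2 had 7.14 and 10.6 RPKM in Untreated A and B, and 9.93 RPKM with G418, so that G418 fell between the others. CHAC1 rested on 6, 44 and 21 CDS reads, or 1.61, 7.30 and 4.58 RPKM. The log2 change of CHAC1 was 1.51 (0.15 to 3.10) over Untreated A and -0.67 (-1.50 to 0.11) over Untreated B, and the untreated libraries differed by 2.18 (0.94 to 3.70). A comparison with Untreated A alone would give CHAC1 a 2.84-fold higher density in G418, and with Untreated B alone a 0.627-fold one.

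**Figure D2:**
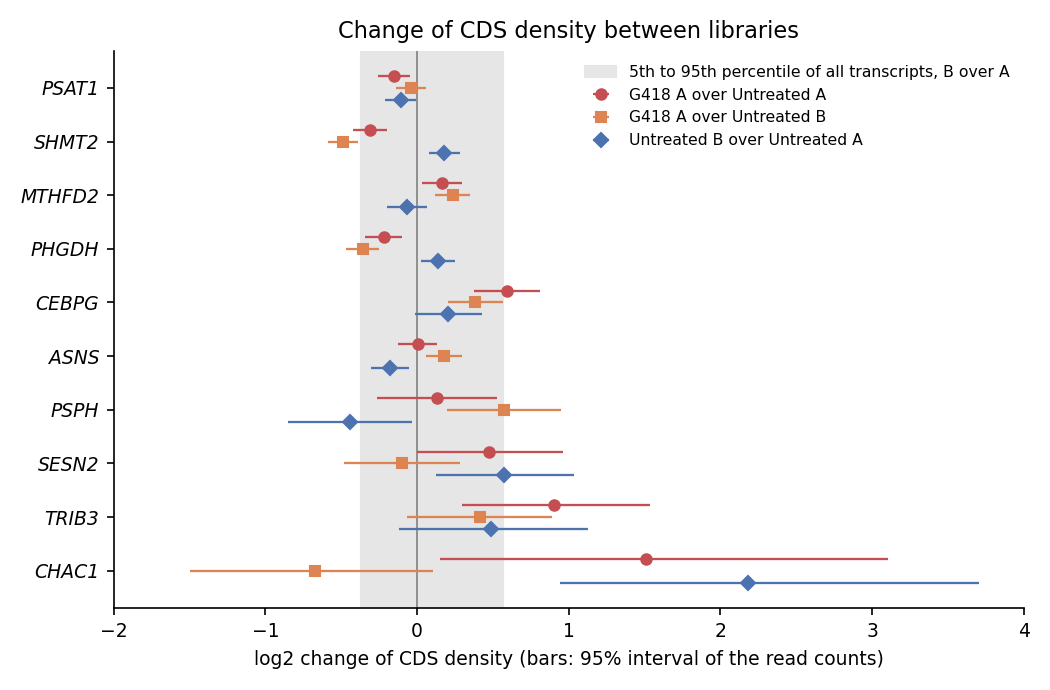
Log2 change of CDS density for the 10 genes, with G418 A over Untreated A (red circles), G418 A over Untreated B (orange squares) and Untreated B over Untreated A (blue diamonds). Bars are exact 95% intervals of the read counts, and the grey band spans -0.37 to 0.57, the 5th to 95th percentile of Untreated B over Untreated A over 5684 transcripts; SHMT2 and PHGDH lie left of 0 in both red and orange, CEBPG and MTHFD2 right of it, and CHAC1 is blue far to the right.

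Counted together, 5 of the 10 genes were denser in G418 than in both untreated libraries (ASNS, PSPH, MTHFD2, TRIB3 and CEBPG), 3 were less dense than in both (PHGDH, PSAT1 and SHMT2), and SESN2 and CHAC1 lay between. Over the 5684 background transcripts, 46.3% were above both and 27.9% below both. Among the 6 genes in that set 3 were above and 3 below. The 95% counting interval excluded 0 on the same side over both untreated libraries for MTHFD2, CEBPG, PHGDH and SHMT2, and for these 4 genes both changes were larger than the untreated difference. With libraries scaled by TMM, which lowered the median log2 change of all transcripts from 0.07 to -0.03, ASNS and PSPH no longer lay above both untreated libraries, and MTHFD2 lay 0.03 above Untreated A (-0.10 to 0.16), less than its untreated difference of -0.14 on that scale. CEBPG, PHGDH and SHMT2 kept both properties with TMM. The share of background transcripts with these properties was not computed. On the deposited scale the interval also excluded 0 between the untreated libraries for 7 of the 10 genes. These were ASNS, PHGDH, PSAT1, PSPH, SHMT2, SESN2 and CHAC1. An interval that excludes 0 therefore does not by itself separate a change with G418 from a difference between libraries. By deposited change over the untreated mean, SHMT2 exceeded 4.79% of the background, PHGDH 9.76%, MTHFD2 66.8% and CEBPG 88.4%.

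A log2 change of 1, that is a change of 2-fold, was reached by 1 of the 10 genes over Untreated A, by 0 over Untreated B and by 1 between the untreated libraries, and that gene was CHAC1 both times. In the background 2.27% of transcripts reached it over Untreated A, 1.39% over Untreated B and 0.422% between the untreated libraries. CHAC1 has too few reads for that set, and 0 of the 6 genes in the set reached it in any of these comparisons. At a minimum mean of 20 CDS reads, which CHAC1 meets, 332 of 8480 transcripts reached it between the untreated libraries. A rise of this size over both untreated libraries was seen in 0.616% of the background and a fall in 0.0176%, and in 0 of the 10 genes. The median change over the untreated mean was -0.0042 for the 6 genes in the set and 0.07 for all 5684 transcripts.

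EdgeR's quasi-likelihood test on CDS reads took its spread from the 2 untreated libraries alone, shared across transcripts, and assumed that the G418 library varies like them. It called 127 of 8468 transcripts (1.5%) at a Benjamini-Hochberg adjusted p under 0.05, 95 higher and 32 lower in G418, and 0 of the 10 genes. SHMT2 came nearest, with an edgeR log2 change of -0.50 (SE 0.20) and an adjusted p of 0.227, and was the only one of the 10 with an unadjusted p under 0.05 (0.0113). PHGDH had -0.39 (SE 0.20, edgeR adjusted p 0.432) and CEBPG 0.38 (SE 0.23, edgeR adjusted p 0.553). The edgeR adjusted p of the other 7 genes was between 0.748 and 0.992. Among them SESN2, TRIB3 and CHAC1 had an SE of 0.39, 0.49 and 0.74, so the absence of a call says little about them. DESeq2's Wald test called 19 transcripts, and none of the 6 members for which it gave an adjusted p.

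ATF4 itself and DDIT3, which encodes the transcription factor CHOP, were measured in the same libraries. ATF4 had a CDS density of 22.4 and 20.4 RPKM in the untreated libraries A and B, against 28.3 RPKM in G418 A, a log2 change of 0.34 (0.02 to 0.66) and 0.47 (0.18 to 0.76) beside an untreated difference of -0.13. DDIT3 had 5.01, 5.53 and 18.9 RPKM from 14, 25 and 65 CDS reads. DDIT3 was thus 3.77-fold and 3.41-fold denser in G418 than in Untreated A and B, although its edgeR adjusted p was 0.120 (log2 change 1.77, SE 0.61).

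Other genes of the pathway were taken from 7 lists, of which 85 genes were listed in all 3 libraries. Of 7 other enzymes of serine, glycine and one-carbon metabolism, 0 passed edgeR, and the median log2 change over the untreated mean was -0.15 for the 6 with enough reads (-0.25 with TMM). Of 12 other amino acid synthesis enzymes 0 passed edgeR, with a median of -0.12 over the 7 with enough reads (-0.22 with TMM). Their largest change over the untreated mean belonged to PYCR1, an enzyme of proline synthesis, which like CHAC1 split the untreated libraries, with 3.16 and 11.95 RPKM in Untreated A and B, and 9.66 RPKM with G418.

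The amino acid transporters had a median log2 change of 0.22 over 7 genes (0.12 with TMM), with 6 of 7 denser in G418 than in both untreated libraries (3 of 7 with TMM) and 0 of 10 past edgeR. SLC43A1, a carrier of large neutral amino acids, rested on 11, 23 and 49 CDS reads and gave 1.85 over Untreated A and 1.48 over Untreated B (edgeR adjusted p 0.279). The 17 cytosolic tRNA synthetases had a median of -0.07 (-0.18 with TMM), with 3 above both untreated libraries, 10 below both and 0 past edgeR. On the deposited scale YARS, the tyrosyl-tRNA synthetase, had their largest change over the untreated mean, 0.36. VARS, the valyl-tRNA synthetase, was close to it in the other direction at -0.35 and had the larger edgeR log2 change (-0.45 against 0.26), and was named after its values were seen.

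Of 8 genes of stress signalling and transcription, including ATF4 and DDIT3, 0 passed edgeR, and the median over the 5 with enough reads was 0.08 (-0.03 with TMM). Of 18 other ATF4 and CHOP targets, 1 passed edgeR, and the median over 13 was 0.23 (0.13 with TMM). VEGFA, a growth factor, had the largest change over the untreated mean in that list, with 10.3, 11.3 and 21.6 RPKM, and did not pass edgeR (adjusted p 0.421). The one that passed was ERO1A, an oxidase of the ER (86.1, 62.3 and 145.5 RPKM, edgeR log2 change 0.87, SE 0.20, adjusted p 0.0033), named here after its value was seen.

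ER folding genes had the highest median of the 7 lists. All 12 with enough reads were denser in G418 than in both untreated libraries (12 with TMM, 10 with DESeq2 size factors), with a median log2 change of 0.66 over the untreated mean (0.56 with TMM), and 4 of 13 passed edgeR. HERPUD1, a component of ER-associated degradation, had 26.1 and 19.3 RPKM in the untreated libraries A and B, against 66.6 RPKM in G418 A (edgeR log2 change 1.46, SE 0.24, adjusted p 6.9e-06). MANF, a secreted protein induced by ER stress, had 192, 188 and 418.1 RPKM (edgeR log2 change 1.04, SE 0.20, adjusted p 0.000137). HSP90B1 and PDIA4 were the others that passed, with edgeR log2 changes of 0.70 and 0.78, and were named after their values were seen.

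The next question was how far ribosomes read through the NTC of the 10 genes. The ribosome readthrough score (RRTS) compares the RPF density from the NTC to the stop codon that next occurs in frame in the 3′UTR (3′TC) with the density of the CDS, with the first 6 nt left out. Few readthrough reads were counted without drug, and most of those counted with it lay on SHMT2 and MTHFD2. Over the 6 genes with enough reads, readthrough reads numbered 12 and 17 in Untreated A and B and 215 in G418 A, where 335, 577 and 412 would have been found at the density of the CDS. Pooled RRTS was therefore 3.58%, 2.95% and 52.1%. The background gave 1.57%, 1.25% and 21.3% in the same order. The fold over the untreated mean was 16.0 for the 6 genes and 15.2 for the background. The pooled RRTS of the 6 genes was above the background value in each library, but in Untreated B this rested on CEBPG. In G418 it rested mostly on SHMT2 and MTHFD2. RRTS of the others of the 6 in G418 was 12.8% for ASNS, 2.35% for PHGDH, 24.0% for PSAT1 and 30.4% for CEBPG. The median RRTS in G418 was 27.2% for the 6 genes and 18.3% for the background. Without CEBPG, an alternative chosen after seeing the data, pooled RRTS was 4.18%, 1.23% and 58.1% in the same order, and the fold was 21.5.

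Of 244 readthrough reads in G418 over all 10 genes, 177 (72.5%) came from SHMT2 and MTHFD2. Without SHMT2 the pooled RRTS of the remaining 5 genes was 42.5% and the fold 10.5. RRTS was above 0 in G418 for 9 of the 10 genes and for 75.8% of the background, against 4 of 10 genes in each untreated library, where 24.0% and 22.3% of the background were above 0. For the 6 genes with enough reads, which are in the background set, it was above 0 for 3 and 4 in Untreated A and B and for 6 in G418. Whether a score exceeds 0 also depends on how many reads were to be had at CDS density.

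SHMT2 had 5 and 1 readthrough reads in Untreated A and B, and 94 readthrough reads with G418, over a region of 156 nt, which gave RRTS of 3.89%, 0.424% and 73.6% (exact Poisson 95% interval 59.5 to 90.1%). The intervals treat the CDS density as known and cover counting error only. Its stop signal is UGAA, and the G418 value was above that of 82.0% of the 788 background transcripts with the same signal, whose median was 29.8%. PSAT1 carries UGAA too but had 3, 3 and 9 readthrough reads, which came to 24.0% in G418 (10.99 to 45.6%), below the median for that signal. The readthrough region of PSAT1 is 33 nt long, so few reads were to be had.

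A wider gap separated genes with the signal UAAC, among them MTHFD2 and PSPH, whose sequences are given above. MTHFD2 had 4, 0 and 83 readthrough reads over a region of 105 nt, and its RRTS with the drug was 76.8% (61.2 to 95.2%). PHGDH had 0, 0 and 1 over 66 nt, where 42.6 reads would have matched the CDS density, and an RRTS of 2.35% (0.0594 to 13.1%). The intervals of MTHFD2 and PHGDH do not overlap, and these genes had 1113 and 1114 CDS reads in G418. PSPH, again with UAAC, had 0, 0 and 13 reads over 117 nt and 59.0% (31.4 to 101%). For the untreated counts of 0, a floor of 3 reads is an RRTS of 7.44% and 4.18% for PHGDH and 18.3% and 15.4% for PSPH. The exact 95% upper limits are higher, 9.15% and 5.14% for PHGDH and 22.6% and 19.0% for PSPH. For the 328 background transcripts with UAAC the median in G418 was 18.3%, with quartiles of 2.73% and 47.8%.

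CEBPG, with the stop signal UAGA, differed between the untreated libraries. It had 0 and 11 readthrough reads in the untreated libraries A and B, against 27 readthrough reads in G418 A, or RRTS of 0%, 12.3% (6.15 to 22.0%) and 30.4% (20.1 to 44.3%). The 3 reads that are the limit allowed by a count of 0 would have been 6.27% in Untreated A. The G418 and Untreated B intervals of CEBPG overlap.

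The remaining genes had few reads to judge by. SESN2 (UGAC) had 3, 0 and 11 readthrough reads, which gave 40.5% (8.35 to 118%) in Untreated A from 59 CDS reads, 0% in Untreated B and 86.8% in G418 (43.3 to 155%). The intervals of SESN2 in Untreated A and G418 overlap. CHAC1 (UGAG) had 0, 0 and 5 reads where 2.67 would have matched the CDS, so its RRTS of 187% had an interval of 60.7 to 436%. ASNS (UAGG) has a readthrough region of 18 nt, the shortest length in the tables, and had 0, 2 and 1 reads. TRIB3 (UAGG) had 0 readthrough reads in every library, which allows an RRTS of up to 54.9% in G418 at 3 reads.

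**Figure D3:**
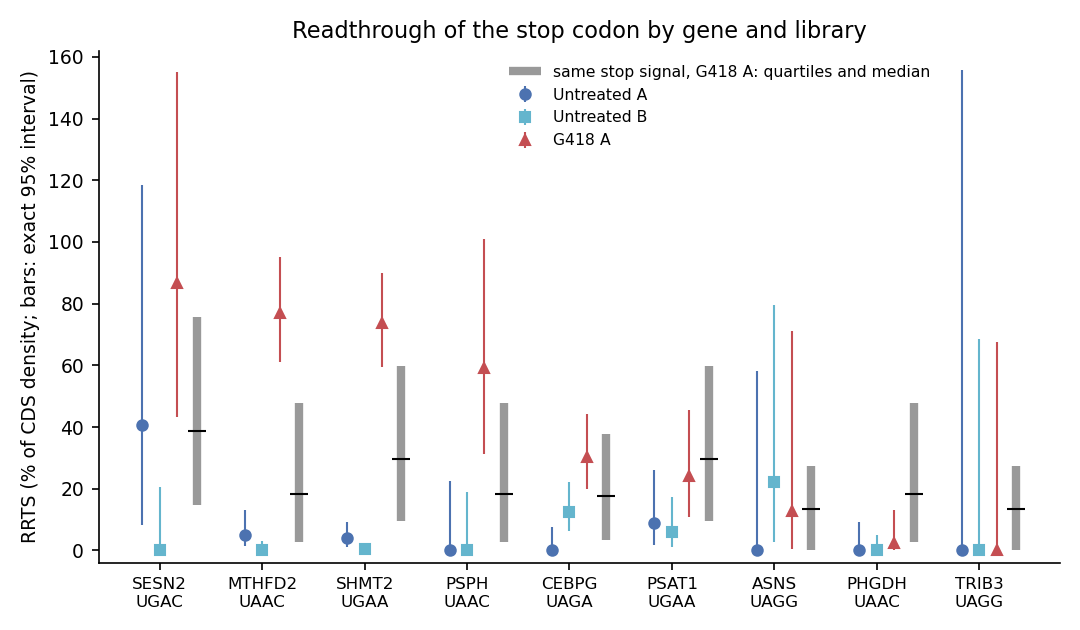
RRTS (percent of CDS density) for 9 of the genes in Untreated A (circles), Untreated B (squares) and G418 A (triangles), with exact Poisson 95% intervals; CHAC1, with fewer than 5 reads to be had at CDS density in G418, is left out. Grey bars join the quartiles of background transcripts with the same 4-nt stop signal in G418, and the black line is their median: MTHFD2, SHMT2, PSPH and SESN2 lie above that bar, and PHGDH lies near 0.

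Some reads lay further on, beyond the 3′TC. In G418, 14 of the 15 reads in the ASNS 3′UTR and 37 of 46 in that of PSAT1 lay outside the readthrough region, the genes with the shortest regions. For SHMT2 the number was 18 of 112 and for MTHFD2 13 of 96. Over the background 33.7% of 3′UTR reads lay outside it in G418. The 3′UTR reads in the tables leave out the same first 6 nt, so that none of these reads lies between the NTC and the readthrough region. Per length, the density of ASNS beyond the 3′TC was 19.0% of its CDS density, above that of 97.4% of 5336 background transcripts, whose median was 0.630%, while Untreated A and Untreated B had 0 such ASNS reads.

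The 5′UTR was examined because ATF4, DDIT3 and CHAC1 are known for upstream open reading frames that tune their translation. In G418 the number of 5′UTR reads per CDS read was lower than in both untreated libraries for PSPH, SHMT2, PHGDH and PSAT1, and higher than in both for ASNS and CEBPG. The background median was lowest in G418 as well, with 0.555 and 0.710 per 100 CDS reads in Untreated A and B and 0.524 in G418. How many background transcripts were lower or higher than in both was not counted. PSPH had 80 and 92 reads in its 5′UTR in Untreated A and B, and 52 reads in its 5′UTR with G418, which is 84.2, 81.4 and 40.6 reads per 100 CDS reads (exact 95% intervals 61.8 to 115, 61.1 to 108 and 28.8 to 56.5). The G418 interval lies below both others, and the ratio to the untreated mean was 0.491. On the RPM scale the PSPH 5′UTR had 13.7, 9.71 and 7.21 RPM, so that G418 was lowest there too. PSPH has 1 named pseudogene, and its share of these reads was not tested. In each library PSPH exceeded over 99.0% of background transcripts by this measure, whose median was 0.524 to 0.710 reads per 100 CDS reads. The measure is not scaled for length, and PSPH has a 5′UTR of 800 nt against 645 nt of counted CDS. A rank by 5′UTR density was not computed.

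ASNS had 16, 19 and 37 reads in its 5′UTR, or 1.83, 1.52 and 3.43 per 100 CDS reads (1.04 to 2.99, 0.912 to 2.38 and 2.40 to 4.76). The G418 value was 2.05 times the untreated mean, although its interval overlaps that of Untreated A, and in RPM the ASNS 5′UTR had 2.73, 2.005 and 5.13. CEBPG had 18, 28 and 44 reads, or 6.72, 5.60 and 8.85 per 100 CDS reads, with overlapping intervals. SHMT2 had 7, 19 and 2 reads, or 0.551, 0.816 and 0.158 per 100 CDS reads (0.221 to 1.14, 0.490 to 1.28 and 0.0192 to 0.574), a ratio of 0.232 to the untreated mean, and its G418 interval overlaps both others. PSAT1 had 2, 1 and 0 reads. PHGDH had 17, 5 and 1, so that the untreated libraries already differed (1.61 and 0.267 per 100). CHAC1 and MTHFD2 had 0 reads in the 5′UTR in every library, and at 6 to 44 CDS reads for CHAC1 a low share was not detectable.

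ATF4 had far more reads in the 5′UTR than in the CDS in all libraries, with 381 and 313 per 100 CDS reads in the untreated libraries A and B, against 396 per 100 CDS reads in G418 A. For DDIT3 the number was 243, 376 and 95.4 per 100 CDS reads (127 to 490, 240 to 610 and 66.3 to 137), so that G418 was lowest, its interval overlapping that of Untreated A at the edge. On the RPM scale the DDIT3 5′UTR had 5.80, 9.92 and 8.59 RPM, so that G418 lay between the untreated libraries.

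**Figure D4:**
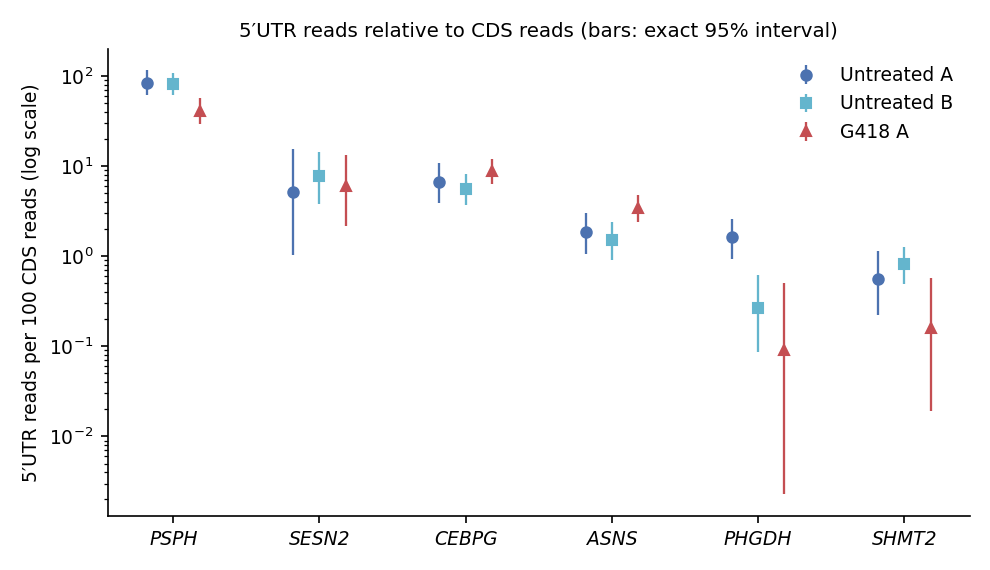
5′UTR reads per 100 CDS reads (log axis) for the 6 genes with at least 1 such read in every library, in Untreated A (circles), Untreated B (squares) and G418 A (triangles), with exact 95% intervals. PSPH lies at 84.2 and 81.4 without drug and 40.6 with it, and ASNS at 1.83 and 1.52 against 3.43.

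Promoters of the genes were searched for the letters of a C/EBP-ATF composite site, TGATGNAA on either strand, in the window from 250 bases before to 50 after the start site (RefSeq sequences, GRCh38.p14). Of 8 genes with a promoter entry 3 held it, against 4.46% of 27305 genes. They are given with the match in capitals, 5′ to 3′ on the strand that holds it, because this is the letter pattern through which ATF4 is known to act. ASNS and CEBPG have the match on the strand of the gene, 68 and 42 bases before the start, and CHAC1 on the opposite strand, and no promoter entry was used for PSPH and SHMT2. A match describes letters only, and these 3 genes had unlike changes in density with G418 (log2 over the untreated mean 0.09, 0.48 and 0.04).
ASNS, chr7:97872469-97872476: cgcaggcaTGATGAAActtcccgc
CEBPG, chr19:33374071-33374078: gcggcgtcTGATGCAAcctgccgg
CHAC1, chr15:40953262-40953269: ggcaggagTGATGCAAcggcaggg

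The transcripts whose 3 centred log2 CDS densities were nearest to the median profile of the 6 genes with enough reads were GLO1, CAV1, SLC2A1, TAF6L and PDCD5, at Euclidean distances of 0.0071 to 0.0093 over 3 libraries. Their log2 change with G418 was between -0.04 and 0.05 over either untreated library.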

How the data were processed

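RPFs had been measured in 3 libraries of HEK293T cells. Per the study's methods, the authors removed duplicate reads by their unique molecular identifiers and discarded noncoding RNA. They aligned the rest with STAR to hg38 guided by GENCODE version 30, kept the primary alignment of a read, and assigned fragments of 28 to 35 nt to the A site on 1 transcript per gene. Base calling with CASAVA 1.8 is named in the submitters' processing notes. Reads from copies of a gene can therefore be credited to the wrong locus, and GENCODE version 44 names 4 pseudogenes of ASNS, 7 of MTHFD2, 4 of PSAT1 and 1 of PSPH, so the values of these genes are uncertain.

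The authors deposited RPM values per region, whole-number counts, RPKM densities (RPM per kilobase, the first 18 and last 15 nt of the CDS left out) and RRTS, a ratio of RPKM densities. Deposited CDS counts were 1 lower than RPM implied for 9080 of the 9099 transcripts of Untreated A, but for 283 and 72 in the other two libraries. Reads printed in the text were obtained by dividing RPM by the RPM of 1 read, and every value was whole within 0.01.

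The members and lists were chosen with earlier results of these data known. Density changes are log2 ratios of deposited RPKM, given as a description with no test. CDS reads were tested: edgeR 4.0.16 (quasi-likelihood, TMM, R 4.3.3) was run on deposited CDS counts with a mean of at least 20, and was checked on simulated data; DESeq2 1.42.0 was an alternative. P-values rest on the spread between the 2 untreated libraries, since G418 had 1. EdgeR shared this spread across transcripts, so its p-value does not measure the spread of a single gene. Named genes were the 10 members, ATF4, DDIT3, from each list up to 3 genes past a log2 change of 1 over both untreated libraries or otherwise the gene with the largest change, and the 5 transcripts with the nearest profile; list genes that passed edgeR were added. A list gene and a sequence that these rules would name are not reported here. Intervals (95%) were computed with scipy 1.17.1: Clopper-Pearson for 2 read counts and Poisson for RRTS. They and the floor of 3 reads cover counting error only. Alternatives were other scalings, minimum reads, a pseudocount, omission of each untreated library, and other settings for readthrough, 5′UTR and motif.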

Additional observations from a re-analysis of the deposited data

How the results depend on the processing

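The median log2 change of the members, -0.0042, became -0.11 with TMM factors, -0.12 with DESeq2 size factors and 0.12 with all 10 genes (a minimum mean of 20 reads, or none). It lay between -0.07 and 0.07 when either untreated library was left out. ASNS and CHAC1 changed sign over the untreated mean under TMM (-0.02 and -0.04) and DESeq2 factors, and SESN2 and CHAC1 without Untreated replicate A (-0.10 and -0.67). Of 30 single-gene density values under other scalings or a pseudocount, 24 moved by less than the SD of the 2 changes. CHAC1 had 1.51 without Untreated B. Transcripts past a log2 change of 1 over the untreated mean numbered 65 (60 rose, 92.3%), 326 at a minimum mean of 20 reads, 383 with none, 5 at 500, and 79 to 129 when an untreated library was left out; without Untreated B the number was 129. TMM gave 48, of which 77.1% rose, and DESeq2 size factors 47, of which 76.6% rose. At the minimum of 20 reads, 332 transcripts passed between the untreated libraries themselves. DESeq2's Wald test called 19 transcripts (7 up, 12 down, 3940 adjusted p-values not given) against 127 by edgeR. None of 42 alternative tests of a member passed an adjusted p of 0.05, and the adjusted p of SHMT2 ranged from 0.173 to 0.433. Pooled RRTS of the members was 42.5% without SHMT2, and its fold was 10.5 without SHMT2, 20.8 for regions of at least 60 nt, 21.5 without CEBPG (chosen after seeing the data) and 14.6 to 17.7 when an untreated library was left out. With all 10 members, a setting chosen after seeing the data, the pooled RRTS was 53.6%. The PSPH ratio of 0.491 stayed between 0.482 and 0.499 without either untreated library, also chosen after seeing the data. The number of list genes past a log2 change of 1 over both untreated libraries, 2 among those with enough reads, was 1 with TMM. The 7-letter motif TGATGNA was found in 4 of 8 promoters against 12.1% of genes. The cause of these shifts was not tested, beyond the change in transcripts or libraries that a setting itself makes. No paired analysis was possible because the groups share 1 replicate letter. A density over the whole CDS could not be computed from the deposited columns, and edgeR without an untreated library would leave 1 library a group and was not run. The depth of 6 to 44 CDS reads limits CHAC1, and G418 with 1 library has no error between cultures.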
